A study of Mus musculus with 24 samples.

Results

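Gem, Rrad, Rem1 and Rem2 encode the RGK proteins (Rad, Rem, Gem/Kir), a small family within the Ras branch of GTP-binding proteins. The 4 genes were taken by symbol from a table of 23420 genes counted in 24 mouse cochlear libraries, and all 4 were among the 16607 genes with enough reads to be tested. The family was chosen by measured values, because Gem had risen after noise in these libraries. The noise changes of Gem are therefore described here with no test. Rrad, Rem1 and Rem2 are included as the other members of the protein family.

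RGK proteins differ from most Ras proteins in lacking the lipid-modified C terminus that anchors those to membranes. They bind the beta subunits of high-voltage-activated calcium channels and reduce the calcium current. Calmodulin and 14-3-3 proteins bind the family and affect where in the cell it is found. Gem is known as a gene that is rapidly induced in stimulated cells. In the cochlea, L-type calcium channels with the Cacna1d pore subunit carry the current that triggers transmitter release from inner hair cells.

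The study exposed CBA/Sca mice, 12 weeks old, for 1 h to a noise band from 6 up to 12 kHz, at a level of 100 dB SPL, in the day (from ZT3, hours after lights on) or in the night (from ZT15), and sequenced RNA of whole cochleae. Each exposure was crossed with surgery: mice were adrenalectomized (ADX), which removes the adrenal glands and with them the main source of circulating corticosterone, or sham-operated. Mice without noise were labelled as sham-exposed in the same period. The 8 groups were thus sham exposure and noise, in the day and in the night, in sham-operated and in ADX mice, with 3 libraries each, lettered a to c. No genetic change was labelled in any group, and the labels did not say whether a library came from 1 animal or from a pool. The p-values therefore set group differences against variation between libraries, which may not be variation between animals. The design text set collection 2 h after noise, whereas the sample labels gave ZT11 for the day groups and ZT23 for the night groups. This difference was not resolved, so day and night are used here as names of the groups only.

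Library totals ran from 18894996 to 36108962 counts in genes, and precision at a few CPM, counts scaled to a common library size, was limited by counting error and by 3 libraries per group. All 10 cochlear marker genes, among them Otos, Coch and Tecta, were detected in every library, with a summed level of 4407 to 7315 CPM. Pituitary hormone transcripts (Gh, Prl and Pomc) summed to 9643 CPM in library a of the night noise ADX group and to at most 133 CPM in the other 23 libraries. The cerebellar markers were highest in library b of the day sham-exposed sham-operated group, at 128 CPM, and in library b of the night noise sham-operated group, at 108 CPM. Calls lost when these 3 libraries are left out are named with their values. The 14 skeletal muscle markers, of interest because Gem and Rrad are expressed in muscle, summed to 31.5 to 139 CPM, with Ckm and Myh1 each at 0 in 1 library.

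Gem lies on chromosome 4 at 11704457 to 11714752 on the plus strand of GRCm38, Rrad on chromosome 8 at 104628070 to 104631327 on the minus strand, Rem1 on chromosome 2 at 152626951 to 152635198 on the plus strand and Rem2 on chromosome 14 at 54476100 to 54480431 on the plus strand. All are protein-coding, with merged exons of 2104, 1577, 2156 and 2251 bases in the same order. An antisense gene, Gm33023, shares 141 exon bases with Rrad, and the strand setting of the counting was not given, so Rrad reads may include some of its antisense partner.

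Gem was low and even in all cochleae without noise and higher in all noise-exposed cochleae. In the day sham-operated groups it was at 4.10, 3.30 and 3.41 CPM after sham exposure and at 9.09, 28.2 and 23.96 CPM after noise. In the night sham-operated groups it was at 3.38, 3.79 and 4.15 CPM after sham exposure and at 58.3, 53.8 and 32.8 CPM after noise. The noise libraries lay above the sham-exposed ones in both periods, and library a of the day noise sham-operated group was the lowest of the noise libraries.

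In the day ADX groups Gem was at 3.81, 3.38 and 4.75 CPM after sham exposure and at 28.3, 43.1 and 52.2 CPM after noise. In the night ADX groups it was at 3.59, 3.16 and 3.12 CPM after sham exposure and at 46.9, 40.3 and 29.0 CPM after noise. No noise library overlapped with any sham-exposed library: the highest level without noise was 4.75 CPM and the lowest with noise was 9.09 CPM. In counts, Gem had 74 to 123 reads per sham-exposed library and 224 to 1597 per noise library.

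**Figure D1:**
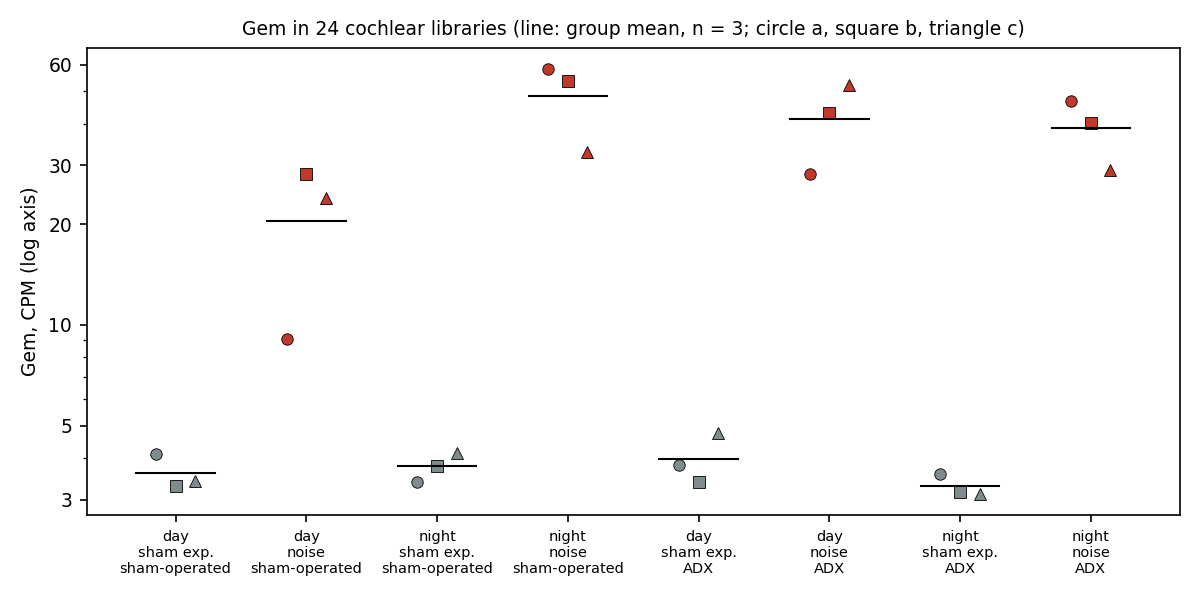
Level of Gem in CPM (log axis) in each of the 24 libraries, by group; points are libraries (circle a, square b, triangle c), red for noise and grey for sham exposure, and lines are means of 3 libraries. The 12 libraries without noise sit between 3.12 and 4.75 CPM and the 12 noise libraries between 9.09 and 58.3 CPM.

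The fitted noise changes of Gem were 5.64-fold in day sham-operated, 12.8-fold in night sham-operated, 10.3-fold in day ADX and 11.7-fold in night ADX cochleae. On the log2 scale these were 2.50 (SE 0.36), 3.68 (SE 0.34), 3.37 (SE 0.34) and 3.55 (SE 0.35). Their mean was 9.67-fold, the 9th largest absolute change among 16607 genes. These values chose the gene and are a description. With the 3 libraries named above left out, the 4 log2 changes were 2.44, 3.60, 3.37 and 3.39. In whole-cochlea RNA a change in the number of cells of a type and a change in RNA per cell cannot be told apart, and the cells that hold Gem are not identified.

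Ordered by mean level, the sham-exposed groups ran from 3.29 ± 0.26 CPM (SD, n = 3, night ADX) through 3.61 ± 0.43 (day sham-operated) and 3.77 ± 0.39 (night sham-operated) to 3.98 ± 0.70 (day ADX). Neighbouring groups in that order overlapped. The noise groups followed with 20.4 ± 10.04 CPM (day sham-operated), 38.7 ± 9.03 (night ADX), 41.2 ± 12.1 (day ADX) and 48.3 ± 13.6 (night sham-operated). The 3 higher noise groups overlapped with one another. The highest library of the day noise sham-operated group, at 28.22 CPM, lay below all of theirs, the lowest of which was at 28.29 CPM. The libraries of a group also spread more after noise: the median coefficient of variation of Gem was 28.7% in the noise groups and 11.1% in the sham-exposed groups.

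Period was not used to choose the family, though earlier results of these data were known. It was tested for all 4 genes, in edgeR's quasi-likelihood fit of all groups with Benjamini-Hochberg adjustment over all tested genes. Among noise-exposed sham-operated mice, Gem was higher in the night than in the day, at 48.3 ± 13.6 against 20.4 ± 10.04 CPM (SD, n = 3). The difference was 2.38-fold (log2 1.25, SE 0.30, 95% interval 0.63 to 1.87, adjusted p = 0.0451), with all night libraries above all day libraries. Gem was the 1 of 4 RGK genes past the threshold in this comparison, in which 1.12% of all tested genes passed. The call rested on few libraries: without library a of the day group, which had the lowest Gem of all noise libraries, the log2 difference was 0.89 (adjusted p = 0.124), and it was also lost without library c of the day group (1.39, adjusted p = 0.0713), without library a (1.09, adjusted p = 0.128) or b (1.17, adjusted p = 0.140) of the night group and without the 3 libraries named above (1.17, adjusted p = 0.132). It was further lost with no filter on low counts (adjusted p = 0.0659), with libraries of the same letter as a block (1.28, adjusted p = 0.0552) and in a fit of only the groups compared (1.26, adjusted p = 0.266). It passed in 5 of 13 alternatives, among them DESeq2 (1.24, adjusted p = 0.0126) and limma voom (1.46, adjusted p = 0.0103). The main fit took 1 spread for each gene over all 8 groups, whereas Gem spread more in the noise groups, as given above. In the fit of only the groups compared the SE was 0.41, against 0.30 in the main fit.

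In the other groups the period difference of Gem did not pass the threshold. The night minus day log2 difference was -0.09 (95% interval -0.69 to 0.51) in noise-exposed ADX mice, 0.07 (-0.78 to 0.92) in sham-exposed sham-operated mice and -0.27 (-1.10 to 0.56) in sham-exposed ADX mice. The noise change of Gem itself was larger in the night than in the day by 1.18 (0.13 to 2.24) on the log2 scale in sham-operated mice, and this difference of changes did not pass adjustment (adjusted p = 0.603). In ADX mice the same difference was 0.18 (-0.84 to 1.20, adjusted p = 0.905). These comparisons share their noise libraries with those above.

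Surgery likewise left Gem without a difference past the threshold. In the day noise groups all 3 ADX libraries (28.29 to 52.2 CPM) were above all 3 sham-operated ones (9.09 to 28.22 CPM), the nearest by little. In this comparison 0% of all tested genes passed, and the share of genes whose libraries separate in this way was not counted. That difference was 2.03-fold (log2 1.02, SE 0.30, adjusted p = 0.371). Without library a of the day noise ADX group it was 1.24 with an adjusted p of 0.0335, and without library a of the day noise sham-operated group it was 0.66 (adjusted p = 0.399). In the night noise groups the ADX minus sham-operated difference was -0.32 (95% interval -0.92 to 0.28) on the log2 scale, and without noise it was 0.15 (-0.70 to 1.01) in the day and -0.19 (-1.02 to 0.64) in the night. The noise change of Gem differed between ADX and sham-operated mice by 0.87 (-0.18 to 1.93) in the day and by -0.13 (-1.15 to 0.89) in the night (adjusted p = 0.399 and 0.988).

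**Figure D2:**
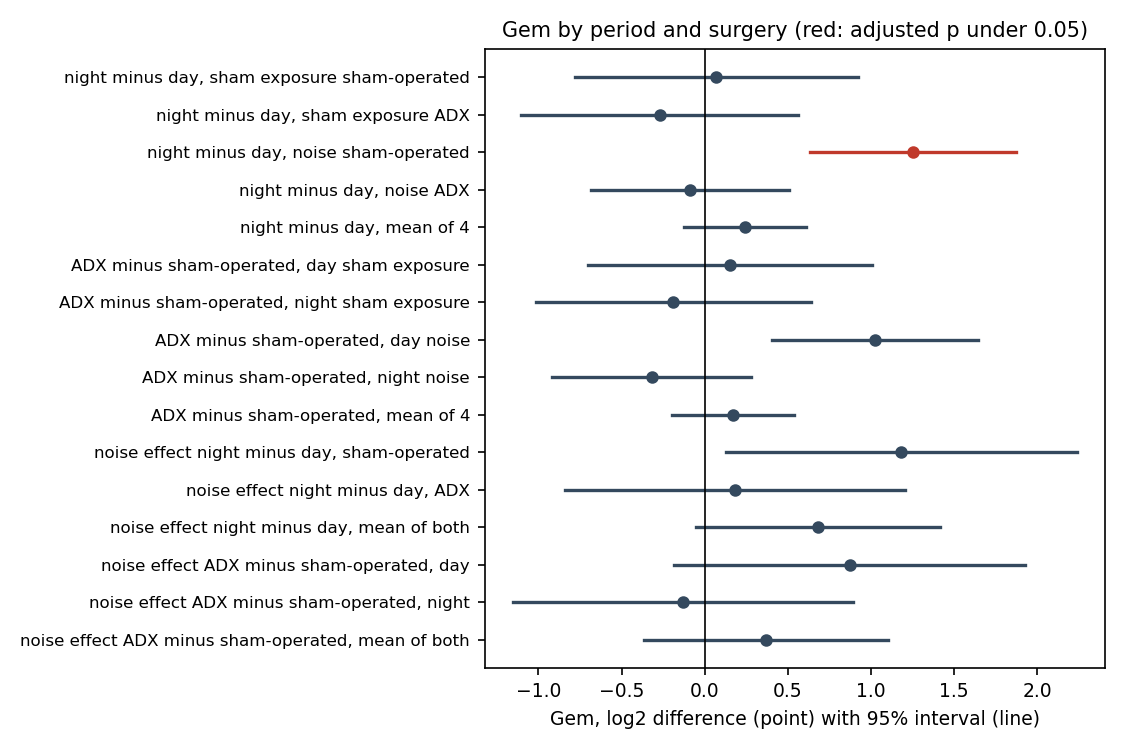
Differences of Gem between night and day, between ADX and sham-operated mice, and of its noise change between these (horizontal axis, log2), as fitted values with 95% intervals. The night minus day difference among noise-exposed sham-operated mice, at 1.25, is the single one past the threshold (red).

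The 8 genes whose log2 levels followed Gem most closely over the 24 libraries, among 15156 ranked, were Dusp4, Atf3, Fos, Socs3, Nab2, Pvr, Ier3 and Maff, with Pearson r from 0.968 to 0.978. Fos, Atf3 and Maff encode basic leucine zipper transcription factors. Dusp4 encodes a phosphatase of MAP kinases, Socs3 an inhibitor of cytokine signalling, and Nab2 a repressor that binds Egr factors. Since the libraries fall into 2 clusters, with and without noise, r was also taken after each group's mean was removed. It then ran from 0.51 (Pvr) to 0.91 (Ier3), with 0.81 for Fos, 0.77 for Atf3 and 0.68 for Dusp4. Within the 12 sham-exposed libraries r was between -0.35 (Nab2) and 0.54 (Ier3).

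All 8 of these genes also had their lowest noise level in library a of the day noise sham-operated group, the library in which Gem was lowest; the genes were picked for likeness over the same libraries. Ier3, a gene known as an immediate early response gene, was at 16.3 CPM there, at 23.3 CPM or more in the other noise libraries and at a median of 13.7 CPM without noise. Fos was at 24.8 CPM there, at 25.2 CPM or more in the other noise libraries and at a median of 8.70 CPM without noise. Ranked by Spearman's rank correlation instead, 2 of the 8 genes stayed among the 8 most alike. Ranked by r with group means removed, 2 of the 8 stayed.

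Rrad, which encodes Rad, best known as a brake on L-type channels in heart muscle, stayed within a narrow range. It was at 1.63 to 3.10 CPM in the 12 sham-exposed libraries (median 2.83) and at 2.01 to 3.47 CPM in the 12 noise libraries (median 2.93), and the ranges overlapped in all 4 noise comparisons. Its log2 noise changes were 0.23 (95% interval -0.27 to 0.73) in day sham-operated, 0.38 (-0.10 to 0.86) in night sham-operated, 0.13 (-0.35 to 0.61) in day ADX and -0.27 (-0.76 to 0.21) in night ADX cochleae. Their mean was 0.12 (-0.13 to 0.36).

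Rem1, found in heart and other tissues, also varied little. It was at 3.30 to 5.03 CPM without noise (median 3.97) and at 3.03 to 4.56 CPM with noise (median 3.78), with overlapping groups throughout. Its log2 noise changes were 0.13 (-0.24 to 0.50) in day sham-operated, 0.00218 (-0.36 to 0.36) in night sham-operated, -0.28 (-0.64 to 0.09) in day ADX and -0.15 (-0.50 to 0.21) in night ADX cochleae, with a mean of -0.07 (-0.25 to 0.11).

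Rem2, known in neurons for its part in synapse formation and dendrite growth, was the lowest and the most variable of the other members, with 12 to 74 reads per library. It was at 0.53 to 1.93 CPM without noise (median 1.17) and at 0.79 to 2.91 CPM with noise (median 1.61). In the night ADX groups it was at 0.76, 0.64 and 0.70 CPM after sham exposure and at 2.91, 0.79 and 1.89 CPM after noise. All 3 noise libraries were above the sham-exposed ones, library b by little. The log2 change there was 1.41 (SE 0.40, 95% interval 0.59 to 2.24), and it did not pass adjustment (adjusted p = 0.152).

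The highest Rem2 level, in library a of the night noise ADX group, fell in the library with 9643 CPM of pituitary hormone transcripts. Over all libraries the log2 level of Rem2 and the log2 pituitary sum had r = 0.51, or 0.67 with group means removed, and for Gem the latter was -0.10. Library c of the same group, at 1.89 CPM of Rem2, held the next highest pituitary sum, 132.6 CPM, and library b, at 0.79 CPM, held 12 CPM. Without library a the Rem2 change was 0.95 (adjusted p = 0.416). Without library b it was 1.76 with an adjusted p of 0.0235, a value that rests on noise libraries a and c. The part of pituitary tissue in the Rem2 level was not tested.

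In the other noise comparisons the log2 changes of Rem2 were 0.60 (-0.23 to 1.43) in day sham-operated, 0.45 (-0.32 to 1.22) in night sham-operated and -0.40 (-1.19 to 0.39) in day ADX cochleae. The mean of the 4 was 0.52 (0.11 to 0.92, adjusted p = 0.142), or 0.40 (adjusted p = 0.262) without library a of the night noise ADX group and 0.60 (adjusted p = 0.0444) without library b.

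**Figure D3:**
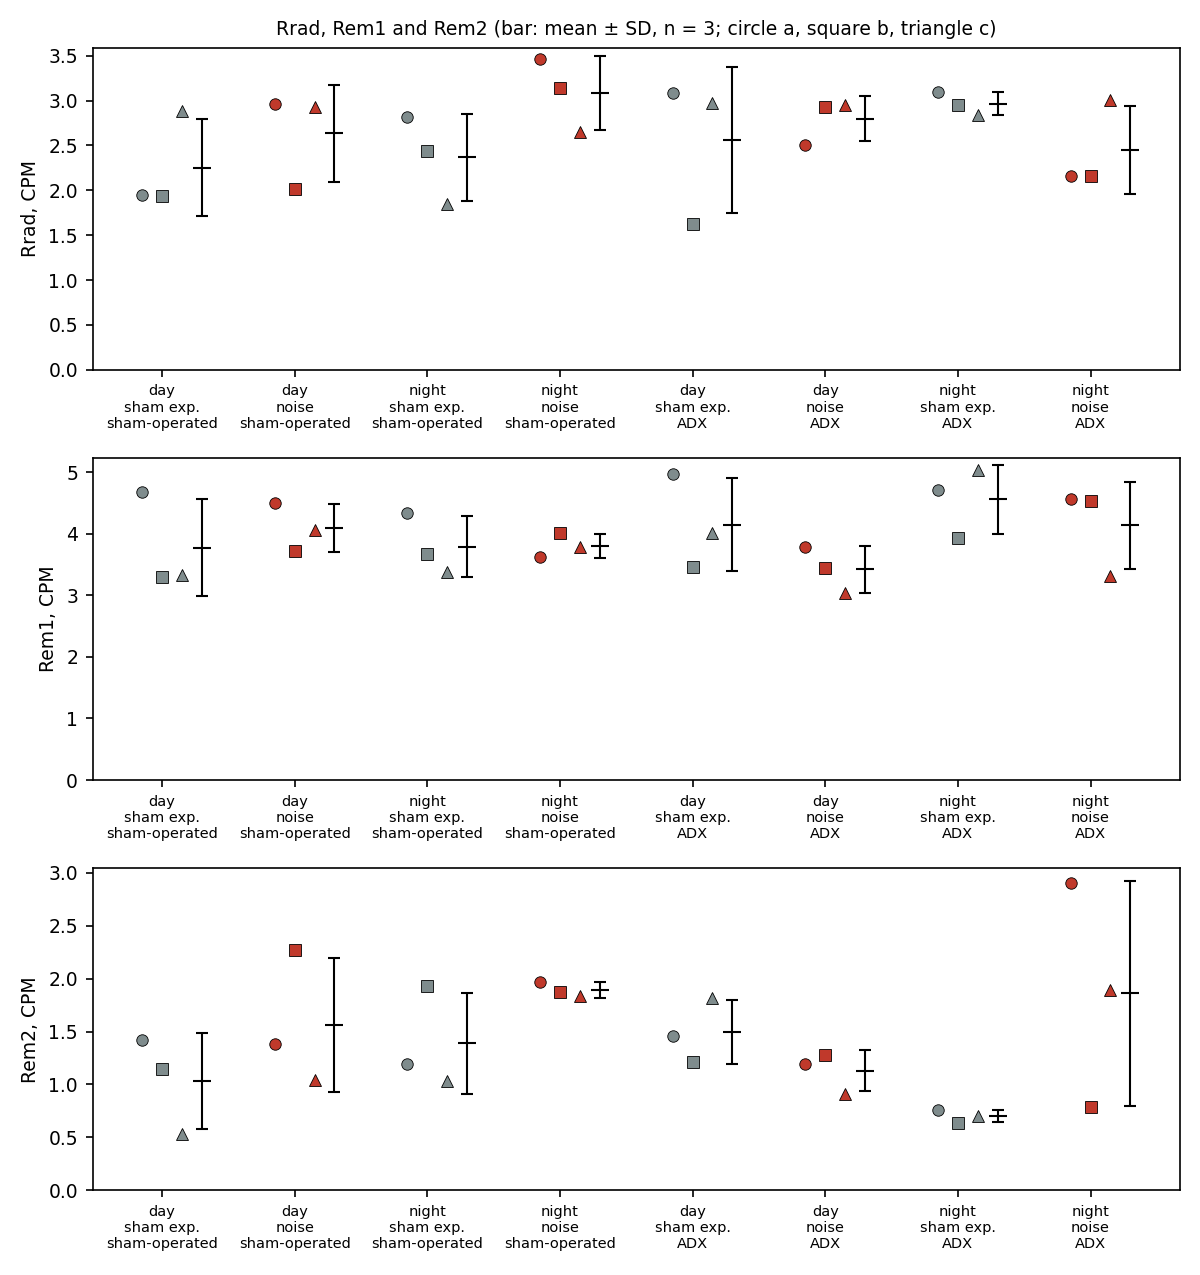
Levels of Rrad, Rem1 and Rem2 in CPM (vertical axes from 0) in each of the 24 libraries, by group, with mean ± SD of 3 libraries; red is noise and grey is sham exposure. Noise and sham-exposed libraries overlap for Rrad and Rem1, and Rem2 reaches 2.91 CPM in library a of the night noise ADX group.

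In all, 0 of the 3 relatives of Gem passed the threshold of 0.05 in any of the 4 noise comparisons or in their mean by edgeR, and 0 did so by DESeq2 or limma voom. At an unadjusted p under 0.05, 1 of the 3, Rem2, would be counted in the night ADX comparison and in the mean, and 0 elsewhere. In these 5 comparisons 8.31% to 23.5% of all tested genes had such a p. After adjustment, 0.247% of all tested genes passed in day sham-operated, 4.02% in day ADX, 0.717% in night sham-operated and 0.5% in night ADX cochleae, and 4.81% for the mean.

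**Figure D4:**
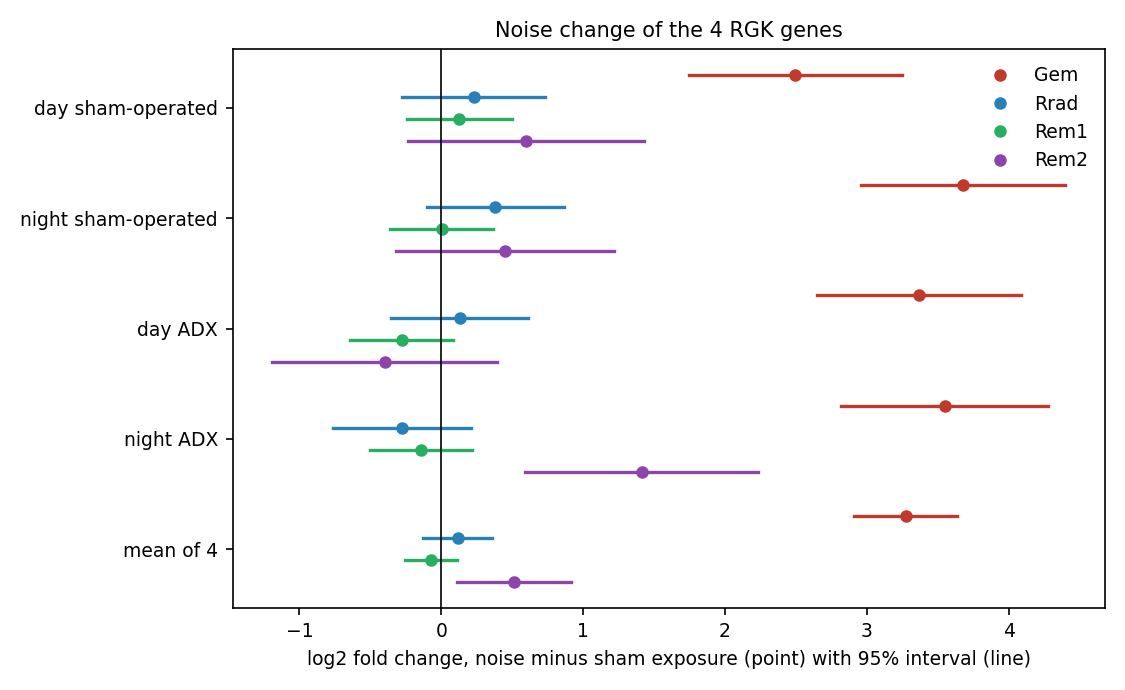
Noise changes of the 4 RGK genes (horizontal axis, log2 fold change of noise over sham exposure) with 95% intervals, in each combination of period and surgery and for their mean. Gem, which was chosen by these values, lies between 2.50 and 3.68, and of the other intervals the 2 of Rem2 in night ADX and for the mean leave out 0.

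By period and surgery, Rrad, Rem1 and Rem2 gave 0 calls in every comparison by all 3 tools. For Rrad and Rem1 the mean night minus day differences were both 0.08 on the log2 scale (95% intervals -0.17 to 0.32 and -0.10 to 0.26), and the mean ADX minus sham-operated differences were 0.06 (-0.18 to 0.31) and 0.07 (-0.12 to 0.25). For Rem2 they were 0.09 (-0.31 to 0.50) and -0.22 (-0.62 to 0.18). The night sham-exposed ADX group, at 0.70 ± 0.06 CPM (SD, n = 3), was the lowest for Rem2: all its libraries were below those of the day sham-exposed ADX group (1.21 to 1.81 CPM) and of the night sham-exposed sham-operated group (1.04 to 1.93 CPM). These log2 differences were -1.08 (SE 0.40, adjusted p = 0.721) and -0.97 (SE 0.40, adjusted p = 0.244). The noise change of Rem2 in ADX mice was larger in the night than in the day by 1.81 on the log2 scale (0.67 to 2.96, adjusted p = 0.330), a comparison that reuses the same low group. For Rrad, all night sham-exposed ADX libraries were above the sham-operated ones (log2 0.32, SE 0.23, adjusted p = 0.555).

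After adjustment few genes of any kind passed in many of these comparisons. Night against day, 0.265% of tested genes passed in sham-exposed sham-operated mice, 0.0181% in sham-exposed ADX mice, 0.62% in noise-exposed ADX mice and 6.01% for the mean. ADX against sham-operated, 0.0422% passed in day sham-exposed and 1.58% in night sham-exposed mice, 0% in both noise-exposed pairs and 3.2% for the mean. For differences of the noise change, 0.00602% passed between night and day in ADX mice and for the mean of both surgeries, and 0% in the remaining 4 comparisons. Of the 4 RGK genes, 1 had an unadjusted p under 0.05 in each of 7 of the 16 comparisons of period, surgery or noise change, Gem in 3 and Rem2 in 4. Of all tested genes, 5.498% to 21.3% had such a p in these comparisons.

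Levels of different genes were compared per length, as CPM divided by the merged exon length in kilobases (RPKM). Without noise, Gem (1.74 ± 0.23, SD, n = 12), Rem1 (1.89 ± 0.30) and Rrad (1.61 ± 0.35) were at similar RPKM levels, and Rem2 was lower at 0.51 ± 0.20. With noise, Gem was at 17.7 ± 6.87 RPKM, above Rem1 at 1.79 ± 0.23, Rrad at 1.74 ± 0.28 and Rem2 at 0.72 ± 0.28. So 3 members were at like levels in unexposed cochleae, and after noise the mean of Gem was above those of the others. Between members, log2 levels over the 24 libraries gave r from -0.22 (Gem and Rem1) to 0.44 (Gem and Rem2), and with group means removed from -0.14 to 0.16.

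No RefSeq promoter window (GRCm38.p6) was at hand for Gem or Rrad, so no motif comparison with Gem was made. The windows of Rem1 and Rem2 are shown as the proximal sequence of these 2 relatives. Each holds 250 bases before to 50 after the start, on the plus strand, with the match to a searched motif in capitals.
Rem1, chr2:152626758-152627057: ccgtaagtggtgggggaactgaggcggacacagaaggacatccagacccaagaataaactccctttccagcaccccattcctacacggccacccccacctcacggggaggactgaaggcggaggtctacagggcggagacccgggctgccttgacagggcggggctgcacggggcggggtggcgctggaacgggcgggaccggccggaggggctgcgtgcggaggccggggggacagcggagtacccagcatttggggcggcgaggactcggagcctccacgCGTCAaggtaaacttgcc
Rem2, chr14:54475850-54476149: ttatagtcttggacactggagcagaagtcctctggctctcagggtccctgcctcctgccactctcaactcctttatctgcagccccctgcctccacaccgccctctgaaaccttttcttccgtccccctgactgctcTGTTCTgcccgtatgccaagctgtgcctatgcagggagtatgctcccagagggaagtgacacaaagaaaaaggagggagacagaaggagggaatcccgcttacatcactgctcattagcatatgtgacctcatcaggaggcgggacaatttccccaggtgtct
The motifs searched on both strands were the cAMP response element TGACGTCA and its core TGACG, the AP-1 site TGANTCA, the CArG box of serum response elements, the glucocorticoid receptor motif AGAACA and the E-box CACGTG. The Rem1 window (68% G and C) holds TGACG once, on the other strand. The Rem2 window (54.7% G and C) holds AGAACA once, on the other strand. Such matches are common: 20.8% of 32851 mouse promoter windows hold TGACG and 19.0% hold AGAACA, against 1.79% for TGACGTCA, 7.81% for TGANTCA, 1.63% for the CArG box and 7.15% for CACGTG. They describe the sequence and are not shown to be sites of binding.

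The gene lists described from here on were chosen with earlier results of these data known, so their p-values may not be independent of that choice. The lists of calcium channel genes, which also hold the low-voltage-activated pore subunits Cacna1g, Cacna1h and Cacna1i and gamma subunit genes known mainly for AMPA receptors, gave 1 call with noise. Of 10 pore subunit genes, 0 passed in any noise comparison by edgeR, and their median mean noise change was -0.07 on the log2 scale, against -0.00038 over all tested genes. The largest was that of Cacna1s, the skeletal muscle channel, at -0.22, for a gene at 0.04 to 1.41 CPM. Of the 4 beta subunit genes, to whose products RGK proteins bind, 0 passed in any comparison of noise, period or surgery, and the mean noise changes lay between -0.14 (Cacnb1) and -0.04. Cacnb3 was the highest of them, at 15.9 RPKM.

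Cacna1d, the hair cell pore subunit, was lower in the night than in the day in noise-exposed sham-operated mice, at 35.3 ± 2.23 against 46.4 ± 1.21 CPM (SD, n = 3). The log2 difference was -0.40 (SE 0.08, adjusted p = 0.0220) and passed in 7 of 13 alternatives; it was lost without library a or b of either group, in a fit of only the groups compared, and without the 3 libraries with pituitary or cerebellar markers (-0.39, adjusted p = 0.0802). Averaged over the 4 pairs of groups the night minus day difference of Cacna1d was -0.16 (SE 0.04, adjusted p = 0.0234), which passed in all 30 alternatives. Without noise, sham-operated mice were at 47.7 ± 1.22 CPM in the day and at 40.2 ± 1.27 CPM in the night, a difference not past the threshold. In ADX mice Cacna1d went from 42.9 ± 1.12 to 40.9 ± 3.69 CPM without noise and from 39.6 ± 5.22 to 41.5 ± 3.96 CPM with noise. A link between Gem and Cacna1d was not tested. Of the 8 measurable alpha2delta and gamma subunits of 12, 1 passed in 1 noise comparison, that of day ADX cochleae, in which 4.02% of all tested genes passed. It was Cacna2d4, an auxiliary subunit, which fell from 9.15 ± 1.55 to 4.29 ± 1.07 CPM after noise (log2 -1.08, SE 0.29, adjusted p = 0.0384). The call of Cacna2d4 passed in 6 of 13 alternatives and was lost without any 1 of the 6 libraries.

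Of the 10 calmodulin and 14-3-3 genes, 2 rose for the mean of the noise comparisons, in which 4.81% of all tested genes passed in either direction. Sfn, the 14-3-3 sigma gene of epithelial cells, was at 5.499 ± 1.06 CPM without noise and at 10.6 ± 2.29 CPM with noise (SD, n = 12), a log2 change of 0.94 (SE 0.10, adjusted p = 2.81e-06). Singly it passed in day ADX (1.11, adjusted p = 0.00486) and night ADX (1.18, adjusted p = 0.00644) cochleae. The day ADX call was lost in a fit of only the groups compared (adjusted p = 0.0607), and the night ADX call without library a of the noise group, without library c of the sham-exposed group and without the 3 libraries with pituitary or cerebellar markers (1.01, adjusted p = 0.0894). In night sham-operated cochleae the value was 0.87 (adjusted p = 0.0519) and in day sham-operated cochleae 0.62 (adjusted p = 0.387). Ywhah, the 14-3-3 eta gene, rose by 0.08 (SE 0.02, adjusted p = 0.0440), which passed in 10 of 30 alternatives. The 3 calmodulin genes did not pass.

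Among 31 other Ras-branch GTPases, of which 29 were measurable, 3 passed for the mean of the noise comparisons, in which 4.81% of all tested genes passed. Rasd1, a GTPase known to be induced by dexamethasone, was at 1.78 ± 0.30 CPM without noise and at 8.08 ± 0.52 CPM with noise in day ADX cochleae (SD, n = 3), a log2 change of 2.18 (SE 0.38, adjusted p = 0.00273). In night sham-operated cochleae it rose by 1.80 (SE 0.36, adjusted p = 0.0140), a call lost without library a or b of the noise group or a or c of the sham-exposed group. In night ADX cochleae the value was 1.599 (adjusted p = 0.0645) and in day sham-operated cochleae 1.19 (adjusted p = 0.312). Its mean noise change was 1.69 (SE 0.19, adjusted p = 3.36e-06). The other called changes were small: Rap1b, a Rap GTPase, rose by 0.17 (adjusted p = 0.0499) and Rasl12 fell by 0.32 (adjusted p = 0.0380), in 11 and 13 of 30 alternatives. Without the 3 libraries with pituitary or cerebellar markers the value of Rap1b was 0.18 (adjusted p = 0.0804). Over the 29 genes the median was 0.03.

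**Figure D5:**
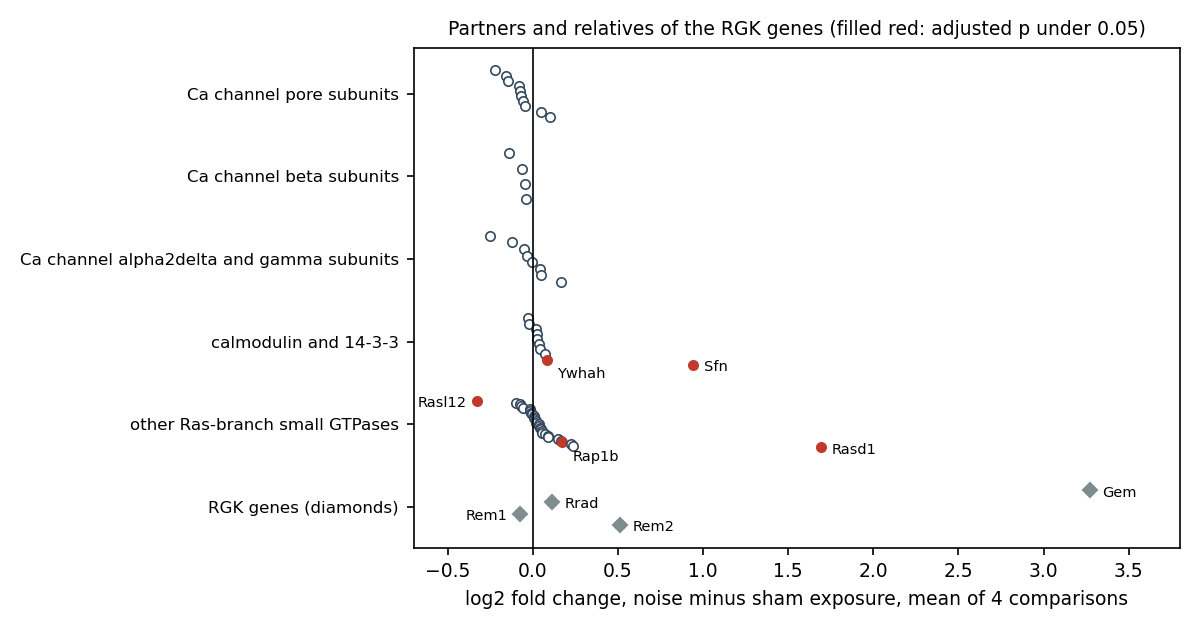
Mean noise change (horizontal axis, log2 fold change of noise over sham exposure, mean of 4 comparisons) of each measured gene of the partner and relative lists, with the RGK genes as grey diamonds. Filled red points passed the threshold; Rasd1, at 1.69, and Sfn, at 0.94, are the furthest from 0 after Gem at 3.27.

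Period and surgery gave few calls in these lists beyond Cacna1d. For the mean night minus day difference Ywhab, the 14-3-3 beta gene, was higher by 0.08 (adjusted p = 0.0464, past the threshold in 12 of 30 alternatives, and 0.06995 without the 3 libraries with pituitary or cerebellar markers). Among night sham-exposed mice, Ywhah (-0.19, adjusted p = 0.0367) and Rhebl1, a Rheb-like GTPase (-0.43, adjusted p = 0.0451), were lower in ADX than in sham-operated mice, in 7 and 3 of 13 alternatives. Without the same 3 libraries Rhebl1 was at -0.43 (adjusted p = 0.0540).

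The genes whose levels followed the other members most closely did so with lower r than those of Gem. For Rrad they were 2310014L17Rik (r = 0.78), Metrnl (0.73), Trap1 (0.66) and Wdr4 (0.62). For Rem1 they were Gss (0.73), 2610307P16Rik (0.72), Gm19345 (0.71) and Myzap (0.70). For Rem2 they were Gprin1 (0.75), St8sia3 (0.72), Crmp1 (0.72) and Dlgap3 (0.71), genes that neurons are known to express. The log2 sum of neuron markers, among them Tubb3, Nefl and Snap25, had a lower r with Rem2, at 0.34, or 0.19 with group means removed. By Spearman's rank correlation, 3 of the 4 for Rrad, 2 of the 4 for Rem1 and 0 of the 4 for Rem2 stayed among the 4 most alike. With group means removed, 1 stayed for Rrad, 1 for Rem1 and 0 for Rem2.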

How the data were processed

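The authors deposited one table of raw counts per gene, whole numbers for 24 libraries, from polyadenylated RNA (stranded kit, 300 ng total RNA, pools of 6 libraries, single reads of 50 bases, per the labels' protocols). Reads were processed with TopHat2 2.0.11 and HTSeq 0.6p1 on mm10, per the submitters' processing notes; the strand setting and annotation were not given in the sources used here. Genes at 0 in all libraries (3340 of 23420) and genes with low counts were left out by filterByExpr, which left 16607. A quasi-likelihood fit (edgeR 4.0.16, robust, R 4.3.3) had one coefficient per group over all libraries, TMM factors of 0.974 to 1.02, and 21 two-sided comparisons, each with Benjamini-Hochberg adjustment over all tested genes at a threshold of 0.05. The fit was run on simulated data in which each gene had the same spread in all groups, so that run could not show the effect of unequal spread. CPM used TMM-scaled totals; log2 CPM for likeness used a prior count of 2. SE is the log2 change divided by the root of F. Positions and exon lengths were taken from GENCODE mouse release 21. The members and gene lists were chosen with earlier results of these data known. Named were all members, list genes past the threshold (up to 4 by smallest adjusted p) with the largest change of each list, and the 8 (Gem) or 4 genes with the highest r and a mean log2 CPM of at least 0. Alternatives were RLE factors, no filter, DESeq2 1.42.0, limma 3.58.1 voom with library weights, only the groups compared, a replicate block, each library left out, 3 libraries left out, a prior count of 0.5 and Spearman's rank correlation. One of the gene lists is not reported here.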

Additional observations from a re-analysis of the deposited data

How the results depend on the processing

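Of 301 alternative values for 45 results of the RGK genes under other settings, 293 kept direction and side of the threshold or, for the untested noise changes of Gem, moved by less than the spread between replicates; of 552 values with 1 library left out, 534 did. The mean noise change of Gem stayed between 9.17- and 10.3-fold. The night minus day difference of Gem after noise in sham-operated mice (1.25) passed in 5 of 13 alternatives. It was not past the threshold with no filter on low counts (1.25, adjusted p = 0.0659) or without the 3 libraries with pituitary or cerebellar transcripts (1.17). Nor was it past with the replicate block (1.28, adjusted p = 0.0552). In a fit of only the groups compared it was 1.26 (SE 0.41, adjusted p = 0.266), with fewer libraries and a spread taken from noise groups alone. With 1 library left out it ran from 0.89 to 1.55. The cause was not tested. The block changed no other call of a member. The letters were not taken as pairs: the labels give them no shared animal, litter or day, and deviations of same-lettered libraries from their group means had correlations of -0.27 to 0.41, not all of them positive. For 14 of 24 libraries the mean correlation of these deviations with libraries of other groups was highest for their own letter of the 3. The median correlations of same-lettered libraries were 0.012 for a, -0.0053 for b and 0.031 for c. Whether libraries of a letter share something is not told by the labels and was not tested. With 1 library left out, the ADX minus sham-operated difference of Gem after day noise ran from 0.66 to 1.33, and the noise change of Rem2 from 0.95 to 1.76 in night ADX cochleae and from 0.40 to 0.60 for the mean; each passed in 1 case.

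Values near 0 that were not past the threshold changed sign. The noise change of Rem1 in night sham-operated cochleae was -0.00011 with no filter, -0.0374 without the 3 libraries, -0.00053 in DESeq2, -0.000803 in a fit of only the groups compared, and -0.078 to 0.11 with 1 library left out. With 1 library left out, Gem ran from -0.30 to 0.11 for night minus day in noise-exposed ADX mice, from -0.00675 to 0.17 for night minus day in sham-exposed sham-operated mice, from -0.0353 to 0.38 for the night minus day noise change in ADX mice and from -0.34 to 0.0464 for the ADX minus sham-operated noise change in the night. Rem2 ran from -0.0242 to 0.18 for the mean night minus day difference and Rrad from -0.11 to 0.28 for noise in day ADX cochleae.

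Counts of called genes over the alternatives ran from 23 to 118 (41) for noise in day sham-operated, 144 to 2254 (667) in day ADX, 78 to 254 (119) in night sham-operated and 37 to 183 (83) in night ADX cochleae, from 589 to 1145 (798) for the mean, and from 31 to 487 (186) for night minus day in noise-exposed sham-operated mice. Library a of the day noise ADX group gave the 2254 when left out and library c the 144. Depth limited Rem2, with 12 to 74 reads per library.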
